A study of Mus musculus with 2 samples.

Results

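The cells described here are choroid plexus epithelial cells, 260 of the 18754 cell barcodes in 2 single-cell RNA libraries of mouse hippocampus. A barcode was a member if it held at least 1000 UMIs (unique molecular identifiers, each standing for 1 captured RNA molecule), 500 or more genes and no more than 20% mitochondrially encoded UMIs. It also needed at least 3% of its UMIs from Ttr and at least 2 UMIs over Enpp2, Folr1, Clic6 and Kcnj13 together. The members were chosen by the measured values of these 5 genes, whose levels are therefore a description. Library 1 held 105 members among 7544 barcodes that passed the depth and mitochondrial limits, a share of 1.39% (exact 95% Clopper-Pearson interval 1.14 to 1.68%). Library 2 held 155 members among 2973, a share of 5.21% (4.44 to 6.07%).

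Both libraries came from hippocampi of wild-type C57BL/6 mice, all adult males aged 10 weeks, and each pooled 3 mice. The series set enzymatic dissociation (30 min, 37 °C) against mechanical dissociation (4 °C), debris and myelin being removed on a Percoll gradient, and used droplet 3' chemistry (10x Genomics, version 3). No label ties a library to a method, so both libraries are unassigned and each is reported on its own. The data files of library 2 carry another sample number than its title, for which the sources used here give no reason.

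The choroid plexus is a folded sheet of secretory epithelium inside the brain ventricles that makes cerebrospinal fluid. It lies against the fimbria of the hippocampus in the lateral ventricle. Its cells move sodium, chloride, bicarbonate and water from blood to ventricle through a polarised set of pumps, exchangers and channels, and they secrete carrier proteins, above all transthyretin, the product of Ttr, which carries thyroid hormone and retinol-binding protein. Tight junctions between the cells form the barrier between blood and cerebrospinal fluid, and the apical face carries microvilli and tufts of cilia.

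Library 1 held 18783691 UMIs over 12306 barcodes and library 2 held 29356086 over 6448. Levels are UMIs summed over the barcodes of a set and scaled to 1000000 UMIs (CPM). They are followed in parentheses by an exact 95% Poisson interval. These intervals and the binomial ones hold counting error alone, so differences between mice are outside them, and with 1 pool a library there is no replicate check. UMIs count transcript ends and are not divided by transcript length. The other passing barcodes of the same library are the background: 7439 in library 1, of which 5708 fell in a neuron class, and 2818 in library 2, of which 1936 fell in a microglia class (at least 75% of at least 5 marker UMIs from 1 list). These backgrounds differ in make-up, which touches every value set against them. The libraries shared 19 barcode sequences, and none of these was a member.

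The steps of the rule kept different shares in the libraries. In library 1, 154 barcodes had at least 3% Ttr, 150 of them also 2 UMIs of the other markers, 116 at least 1000 UMIs and 111 at least 500 genes, and 105 stayed under the mitochondrial limit. In library 2 the same steps kept 456, 373, 258, 241 and 155 barcodes. The mitochondrial limit thus removed 6 candidates in library 1 and 86 in library 2. Just inside the Ttr limit lay members with 3.01, 3.03 and 3.15% in library 1 and 3.06, 3.25 and 3.34% in library 2. Just outside lay barcodes with 2.95, 2.62 and 2.52% in library 1 and 2.998, 2.99 and 2.93% in library 2, so no gap in Ttr separated members from the rest.

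Members varied widely in depth and in Ttr. Library 1 members held 1004 to 15185 UMIs (median 2851), and library 2 members held 1024 to 168757 (median 7811). The median number of genes was 1171 in library 1 and 2061 in library 2. Ttr alone took 3.01 to 50.3% of a member's UMIs in library 1 (median 26.3%) and 3.06 to 55.4% in library 2 (median 25.6%), ranges that overlap almost entirely. Summed over members, Ttr was 29.4% of all UMIs in library 1 and 22.7% in library 2.

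**Figure D1:**
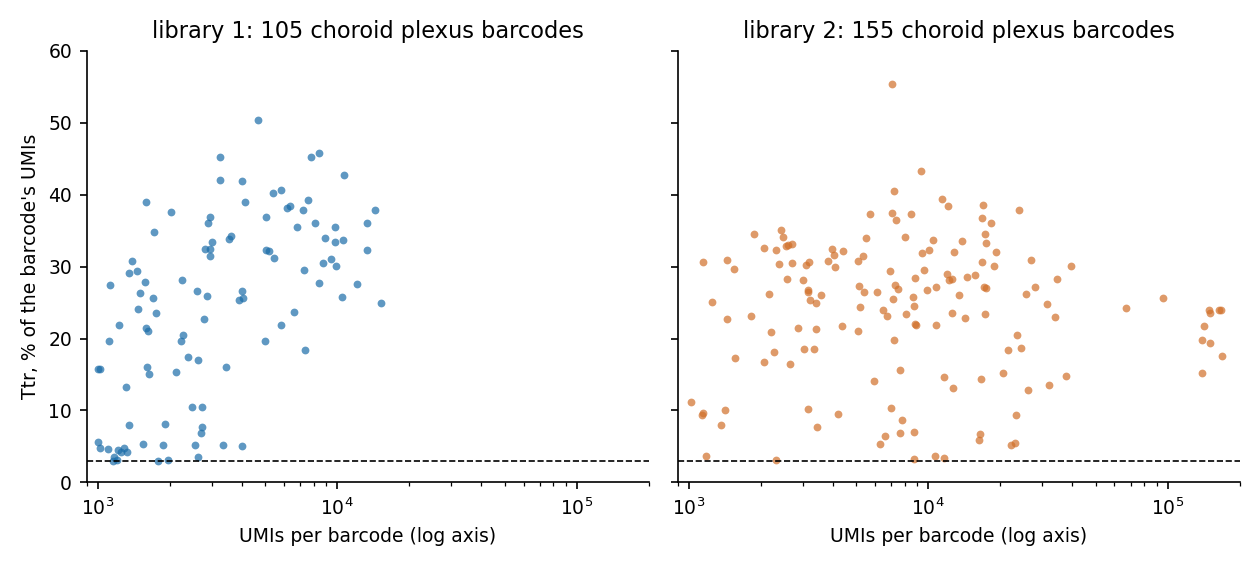
Share of UMIs from Ttr (vertical axis, %) against UMIs per barcode (horizontal log axis) for each choroid plexus barcode, 105 in library 1 and 155 in library 2, with the 3% limit dashed. Barcodes under 10% Ttr occur in both libraries, and 9 barcodes of library 2 stand apart at 138555 UMIs or more.

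The label was set against markers of the other cells a hippocampal suspension can hold. Neuron markers summed to 3272 CPM in the members of library 1 and 194 CPM in those of library 2, against 42224 and 496 CPM in the other barcodes. Of the 7 neuron genes only Gad1 was at 0, and 10 members of library 1 exceeded 10000 CPM. Microglia markers stood at 310.2 and 309 CPM, against 4641 and 19588 CPM in the other barcodes. Oligodendrocyte markers were at 469.7 and 263 CPM, against 1816 and 1828 CPM, and astrocyte markers at 151 and 42.4 CPM, against 856 and 444 CPM. Of the cells of vessels and stroma, endothelial markers stood at 45 and 87.8 CPM, against 40.3 and 2553 CPM, and so not below the background in library 1. Pericyte or smooth muscle markers were above it in library 1 (110.1 against 44.9 CPM) and below it in library 2 (143 against 1539 CPM). Fibroblast markers were at 56.2 and 62.4 CPM, against 76.3 and 193 CPM. Erythrocyte markers were at 11.2 CPM in library 1 and 7239.98 CPM in library 2, where a single member held 799346 CPM of them.

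Ependymal cells, the ciliated cells of the ventricle wall, are the nearest neighbours of this epithelium and share cilium genes with it. Their list of 6 genes summed to 285 and 255 CPM in the members and was above the other barcodes, which held 13.3 and 123 CPM. Dynlrb2 and Pifo stood 4-fold or more above in both libraries. Ccdc153 had 0 UMIs in both, which allows up to 6.74 CPM in library 1 and 1.02 CPM in library 2, and Tmem212 had 1 UMI in library 1 and 0 in library 2. The other barcodes of library 2 held 19 CPM of Ccdc153 and 21.7 CPM of Tmem212. These last 2 genes were singled out after their values were seen. The members thus carried the markers of the rule together with part of the ependymal list and RNA of other cells.

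Members with little Ttr differed in the summed RNA of other cells. Under 10% Ttr lay 22 of 105 members in library 1 and 20 of 155 in library 2, a split made after the values were seen. Their neuron markers stood at 18791 CPM against 1732 CPM in the other members of library 1, and the other way in library 2, at 86.8 against 201 CPM. In library 2 their microglia markers stood at 3077 CPM against 124 CPM, and their oligodendrocyte markers at 3734 CPM against 31.8 CPM. In the same library erythrocyte markers were at 33368 against 5500 CPM. Few barcodes can lead such sums. Of all 155 members of library 2, 4 exceeded 10000 CPM of microglia markers, 1 of oligodendrocyte markers and 2 of erythrocyte markers. The medians over these members were 83.5, 0 and 158 CPM. Ependymal markers were lower under 10% Ttr in library 1 (99.6 against 304 CPM) and higher in library 2 (461 against 241 CPM), and fibroblast markers in library 2 were lower (48.8 against 63.3 CPM). Otx2, a transcription factor of this epithelium that the rule did not use, was present on both sides, at 498 against 185 CPM in library 1 and 342 against 244 CPM in library 2. Igfbp2, 1500015O10Rik and Kl, also outside the rule, were lower under 10% Ttr in both libraries. Igfbp2 was at 299 against 2342 CPM in library 1 and 293 against 1525 CPM in library 2. Prlr was lower in library 2 (97.7 against 832 CPM) and alike in library 1 (324 against 334 CPM). Calml4 and Chchd10 were lower in library 1 and higher in library 2. Whether these barcodes hold more than 1 cell was not tested further than with Scrublet, a doublet caller, among whose highest scores were 7 members of each library.

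The 4 genes that chose the members beside Ttr were present in both libraries. Enpp2, which encodes autotaxin, a secreted enzyme that makes lysophosphatidic acid, reached 15263 CPM in library 1 (14902 to 15630.5) and 17451 CPM in library 2 (17301 to 17603). It lies at chr15:54838901-54952892 on the minus strand (GRCm38, GENCODE M21). Folr1 (chr7:101858331-101870788, minus strand), the receptor that carries folate across this epithelium, reached 1189 CPM in library 1 (1089.8 to 1295) and 818 CPM in library 2 (785 to 851). Kcnj13 (chr1:87386363-87394729, minus strand), an inward rectifier potassium channel of the apical membrane, stood at 1159.7 CPM in library 1 (1062 to 1264) and 744 CPM in library 2 (713 to 776). Clic6 (chr16:92485736-92541243, plus strand), of the chloride intracellular channel family, stood at 411 CPM in library 1 (354 to 475) and 684 CPM in library 2 (654 to 714), and a gene model on the same strand, 2410124H12Rik, overlaps it. The other barcodes held 143 and 259.8 CPM of Enpp2, 1.36 and 9.14 CPM of Folr1, 7.4 and 9.76 CPM of Kcnj13 and 1.15 and 9.82 CPM of Clic6, library 1 first.

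Of all genes with at least 50 UMIs, 684 of 14395 (4.75%) stood 4-fold or more above the other barcodes in library 1 and 816 of 13675 (5.97%) in library 2. Those 4-fold or more below numbered 6040 (42%) and 3991 (29.2%). In both libraries, 278 of 12058 genes (2.31%) stood 4-fold or more above. The median log2 ratio over all tested genes was -0.77 in library 1 and -1.0 in library 2. Leaving Ttr out of the totals moves every log2 ratio up by 0.50 in library 1 and 0.37 in library 2. The rule used this contrast, so the counts of each gene list that follow are a description beside these shares, from which nothing is read. Some lists hold genes of the rule, which are in their sums, counts and medians. Kcnj13 and Clic6 are in ion and water transport, Ttr and Enpp2 in secreted proteins, and Folr1 in transporters of nutrients and organic ions.

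Ion and water transport is the machinery of fluid secretion. The 25 genes of this list summed to 6066 CPM in library 1 (5839 to 6299) and 6748 CPM in library 2 (6655 to 6842), against 2237 and 892 CPM in the other barcodes. At 4-fold or more above stood 9 of 20 tested genes in library 1 and 15 of 23 in library 2 (4 and 4 as far below), with median log2 ratios of 1.79 and 3.15. Fxyd1, a regulator of the sodium pump, reached 959.7 CPM in library 1 (871 to 1055) and 917 CPM in library 2 (883 to 952). Atp1b1, the beta subunit of the pump, was at 744 and 729 CPM. It passed 4-fold in library 2 and not in library 1, against other barcodes that held 900.3 CPM of it in library 1 and 33.7 CPM in library 2.

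Bicarbonate and chloride carriers were present throughout. Slc4a2, an exchanger of chloride and bicarbonate in the basolateral membrane, stood at 348 CPM in library 1 (296 to 408) and 393 CPM in library 2 (371 to 417). Slc12a2, the cotransporter of sodium, potassium and chloride in the apical membrane, stood at 348 CPM in library 1 (296 to 408) and 525 CPM in library 2 (499 to 552). Slc4a5, a sodium bicarbonate cotransporter, was at 106 and 198 CPM and nearly absent elsewhere, at 0.339 and 2.51 CPM. Kcne2, a potassium channel subunit, shared this pattern, with 187 and 285 CPM in members against 0.204 and 2.3 CPM in the other barcodes. Carbonic anhydrase 14 (Car14), which supplies bicarbonate, was at 179.8 and 262 CPM against 11.5 and 20.9 CPM, and the potassium chloride cotransporter Slc12a4 at 40.5 and 65.4 CPM against 6.38 and 16.2 CPM. Aqp1, the water channel of the apical membrane, had 35 UMIs in library 1 and 293 in library 2, or 78.7 CPM in library 1 (54.8 to 109) and 99.3 CPM in library 2 (88.2 to 111).

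**Figure D2:**
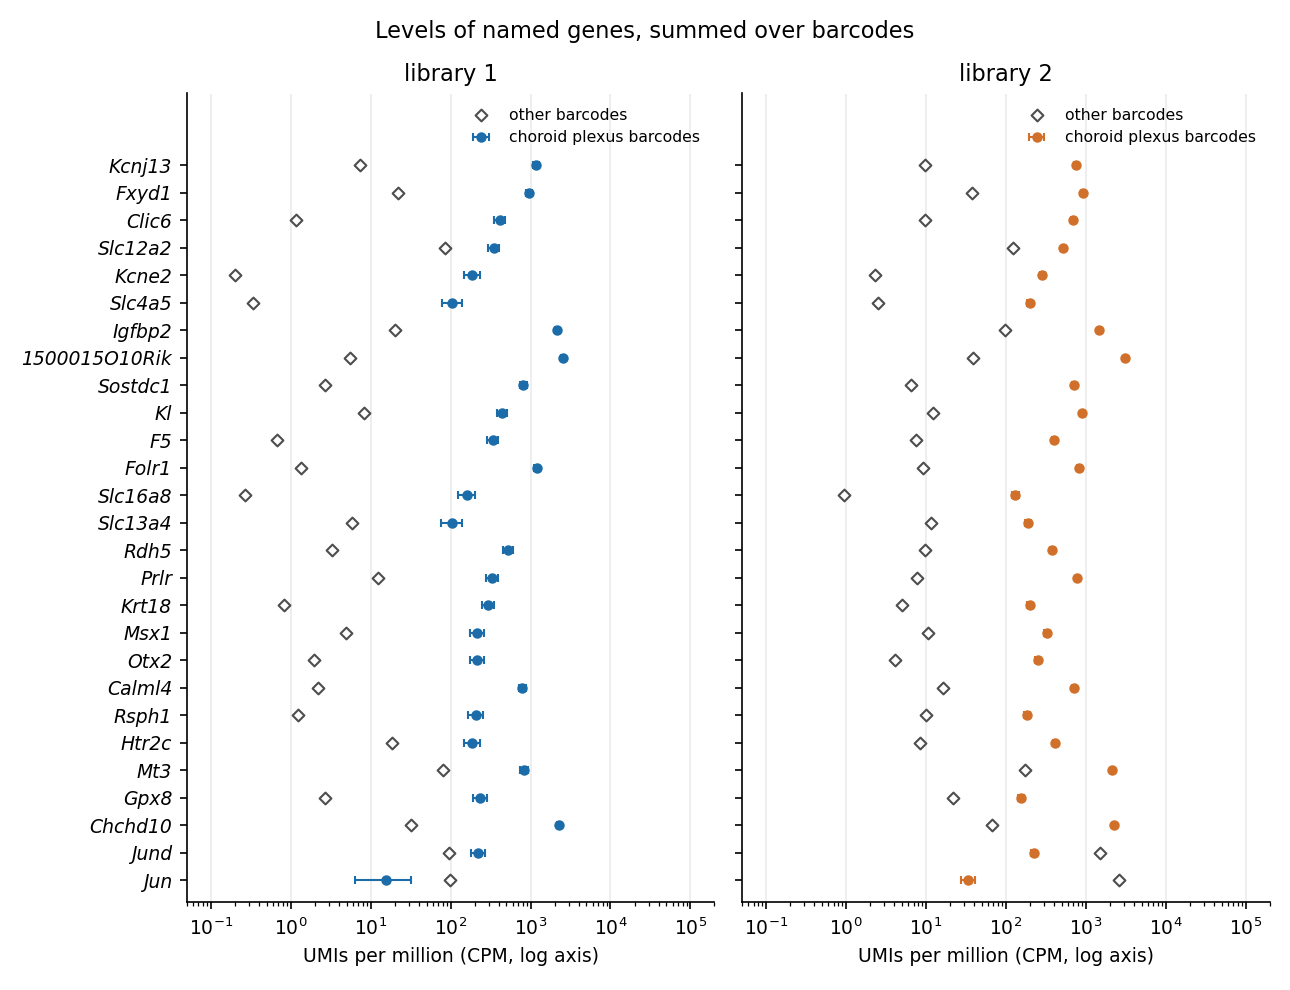
Levels (CPM, log axis) of 27 named genes summed over the choroid plexus barcodes (filled circles, with exact 95% Poisson intervals) and over the other barcodes (open diamonds) of each library. Jun lies below the other barcodes in both libraries and Jund only in library 2, while the 25 other genes lie above them in both. The genes were chosen by hand for the figure, so this count holds for them alone. They include Kcnj13, Clic6 and Folr1 of the rule and leave out named genes that lie below, such as Cst3 and F11r.

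Secreted proteins are the other main product of the epithelium. Without Ttr, the 23 remaining genes of the list summed to 31829.8 CPM in library 1 and 31979.9 CPM in library 2. The other barcodes held 11599.6 and 38993 CPM of these genes, so that without Ttr the members were above in library 1 and below in library 2. Enpp2, also of the rule, was a large part of what remained. Without Ttr and Enpp2 the members held 16567 and 14529 CPM, against 11457 and 38733 CPM. With Ttr counted, 12 of 23 tested genes in library 1 and 14 of 24 in library 2 stood 4-fold or more above (0 and 6 as far below), with median log2 ratios of 3.67 and 2.74. 1500015O10Rik, the gene of augurin, reached 2531 CPM in library 1 (2385 to 2683) and 3082 CPM in library 2 (3019 to 3146) against 5.5 and 38.7 CPM. Igfbp2, which binds insulin-like growth factors, reached 2158 CPM in library 1 (2023 to 2299) and 1448 CPM in library 2 (1405 to 1492) against 20.4 and 98.4 CPM. Clu, the gene of the chaperone clusterin, reached 2931 and 1777 CPM against 229.7 and 147 CPM.

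Hormones and antagonists were part of this list. Kl, the gene of Klotho, a membrane protein that is also shed into the fluid, stood at 436 CPM in library 1 (377 to 502) and 899 CPM in library 2 (865 to 934) against 8.28 and 12.2 CPM. Sostdc1, an antagonist of BMP and Wnt signals, stood at 811 CPM in library 1 (729.8 to 899.5) and 705 CPM in library 2 (675 to 736), and the growth factor gene Bmp7 at 49.4 and 43.4 CPM. Ace (angiotensin-converting enzyme) was at 294 and 374 CPM, coagulation factor F5 at 335 and 398 CPM, the protease inhibitor Spint2 at 579.9 and 588 CPM and the collagen gene Col9a3 at 659 and 425 CPM. Cst3 (cystatin C) was at 2931 and 2611 CPM and so below the other barcodes, which held 9266 and 33305 CPM. Igf2, long known from the choroid plexus, had 1 UMI in library 1 and 55 UMIs in library 2, the latter 18.6 CPM (14 to 24.3).

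Transporters of nutrients and organic ions summed to 2789 CPM in library 1 (2636 to 2949) and 2748 CPM in library 2 (2688 to 2808), and 8 of 20 tested genes in library 1 and 10 of 22 in library 2 stood 4-fold or more above the other barcodes (0 and 4 as far below, median log2 ratios 1.69 and 1.46). Slco1c1, a carrier of organic anions and thyroid hormone, was at 294 and 340.2 CPM and passed 4-fold in library 1 but not in library 2. The copper importer Slc31a1 was at 155 and 258 CPM, the sulfate carrier Slc13a4 at 103 and 190.4 CPM and the glucose transporter Slc2a12 at 153 and 139 CPM, all 4-fold above in both libraries. Slc16a8, a lactate carrier known from choroid plexus and retinal pigment epithelium, was at 159.6 CPM in library 1 (125 to 201) and 132 CPM in library 2 (119 to 146), with 0.271 and 0.94 CPM in the other barcodes.

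Retinoid handling, the business of Ttr's cargo, showed in few genes. Of the 11 genes, 3 of 7 tested genes in library 1 and 4 of 8 in library 2 stood 4-fold or more above (0 and 2 as far below), and median log2 ratios were 0.95 and 2.15. Stra6, the receptor for retinol-binding protein, was at 38.2 and 61.3 CPM. Rdh5, a retinol dehydrogenase, was at 524 and 377 CPM, but the same-strand gene Bloc1s1 overlaps it, so that reads of the 2 genes may be mixed. Rlbp1 was at 33.7 and 21.7 CPM and Rdh10 at 24.7 and 23.7 CPM.

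Junction and epithelial genes summed to 1286 CPM in library 1 (1182 to 1395) and 1874 CPM in library 2 (1825 to 1924). At 4-fold or more above stood 4 of 7 tested genes in library 1 and 9 of 13 in library 2 (1 and 3 as far below, median log2 ratios 2.04 and 4.76). Prlr, the prolactin receptor, was at 333 CPM in library 1 (281 to 391) and 787 CPM in library 2 (755 to 819), and the same-strand model Gm21973 overlaps it. Ezr (ezrin), which ties microvilli to actin, stood at 279 and 405 CPM, and the keratins Krt18 and Krt8 of simple epithelia at 292 and 198 CPM and 108 and 80.7 CPM. Cldn2, the claudin of leaky epithelia, was at 60.7 CPM in library 1 (40 to 88.3) and 148 CPM in library 2 (135 to 163), against 0.136 and 1.2 CPM in the other barcodes. F11r, a junctional adhesion molecule, was at 47.2 and 58.6 CPM, below the other barcodes at 75.3 and 386 CPM.

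Transcription factors of choroid plexus fate and of multiciliated cells were present in both libraries. Msx1 reached 216 CPM in library 1 (175 to 263) and 322 CPM in library 2 (302 to 343), and Otx2 (chr14:48657677-48673819, minus strand), which is needed for choroid plexus identity, reached 214 CPM in library 1 (173 to 261) and 250.1 CPM in library 2 (232 to 269). The other barcodes held 4.95 and 10.5 CPM of Msx1 and 1.97 and 4.12 CPM of Otx2. With every barcode thinned to 1000 UMIs, Otx2 had a UMI in 24.8% of members in library 1 (Clopper-Pearson 16.9 to 34.1%) and 19.4% in library 2 (13.5 to 26.5%). Without thinning these shares were 49.5 and 69.7%, at median depths of 2851 and 7811 UMIs. In the thinned microglia class, which should lack Otx2, the shares were 0 in library 1 and 0.517% in library 2. Of the list, 2 of 4 tested genes in library 1 and 8 of 9 in library 2 stood 4-fold or more above (1 and 0 as far below), with median log2 ratios of 3.28 and 3.78. Foxj1, the master regulator of motile cilia, was at 29.2 and 59 CPM, Gmnc, which acts upstream of it, at 20.2 and 30.5 CPM, Rfx3 at 27 and 30.8 CPM and Otx1 at 11.2 and 15.9 CPM.

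Of the 14 motile cilium genes, 5 of 5 tested genes in library 1 and 8 of 14 in library 2 stood 4-fold or more above the other barcodes (0 and 5 as far below), and the list summed to 1515 CPM in library 1 (1403 to 1634) and 1367 CPM in library 2 (1325 to 1410.2). Median log2 ratios were 8.51 and 2.51. Calml4, a calmodulin-like protein, held the largest part of these sums, at 793 CPM in library 1 (713 to 881) and 711 CPM in library 2 (681 to 742). Rsph1, a radial spoke protein, was at 207 and 184 CPM, Cfap126 at 159.6 and 105 CPM, the dynein light chain Dynlrb2 at 112 and 135 CPM and Pifo at 144 and 92.9 CPM. Tekt1, a tektin of ciliary microtubules, was at 65.2 CPM in library 1 (43.7 to 93.6) and 74.2 CPM in library 2 (64.7 to 84.7). Ccdc153 and Tmem212, above, stood at the floor.

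Promoters of these genes were read from RefSeq (GRCm38.p6) as the 250 bases before each annotated start. They were searched on both strands for GTTGCC, a half-site of the X-box to which RFX factors bind, and for TAATCC, the core of OTX binding sites. GTTGCC occurred in 7 of the 12 cilium genes with a promoter in the table (58.3%), against 3821 of all 27025 genes (14.1%). This share is of the list as chosen. Of the cilium genes named above, Dynlrb2, Pifo, Tekt1 and Ccdc153 had a match, the last being at the floor in members. Calml4, Cfap126 and Tmem212 had none. Among genes 4-fold above in both libraries, 221 of 278 had a promoter in the table. GTTGCC occurred in 43 of these (19.5%) and in 1357 of 8968 genes tested in both libraries (15.1%). TAATCC occurred in 24 of them (10.9%) and in 602 of the 8968 (6.71%). A match says only that these letters stand in the window. Shown are a cilium gene with a match on each strand, Tekt1 (chr11:72361883-72362132, minus strand), the factor Otx2 (chr14:48667645-48667894, minus strand) and the channel subunit Kcne2 (chr16:92292139-92292388, plus strand). Capitals mark GTTGCC or its reverse complement GGCAAC, and each runs 5′ to 3′ on the gene's strand.
Tekt1: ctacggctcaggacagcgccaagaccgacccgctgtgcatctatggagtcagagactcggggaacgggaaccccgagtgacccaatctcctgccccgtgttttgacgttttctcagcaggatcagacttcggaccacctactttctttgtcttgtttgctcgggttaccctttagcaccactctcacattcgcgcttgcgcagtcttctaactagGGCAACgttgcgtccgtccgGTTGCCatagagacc
Otx2: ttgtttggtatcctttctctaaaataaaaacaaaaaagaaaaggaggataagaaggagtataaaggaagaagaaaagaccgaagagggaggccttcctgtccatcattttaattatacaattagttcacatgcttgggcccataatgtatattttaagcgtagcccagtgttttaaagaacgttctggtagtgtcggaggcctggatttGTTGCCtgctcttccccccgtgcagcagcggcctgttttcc
Kcne2: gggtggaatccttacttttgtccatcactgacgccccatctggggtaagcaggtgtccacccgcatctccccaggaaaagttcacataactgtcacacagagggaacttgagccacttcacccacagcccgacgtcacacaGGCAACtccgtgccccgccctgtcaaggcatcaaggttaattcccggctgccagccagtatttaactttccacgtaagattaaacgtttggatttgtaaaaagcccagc

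Regional genes tell the choroid plexuses of the different ventricles apart. The Hox genes of the hindbrain in the list (Hoxa2, Hoxa3, Hoxb2, Hoxb3 and Hoxb5) had 0 UMIs in the members of both libraries, which allows up to 6.74 CPM in library 1 and 1.02 CPM in library 2. Six3, a forebrain gene, was at 45 CPM in library 1 (27.5 to 69.4) and 75.9 CPM in library 2 (66.3 to 86.5), against 1.43 and 2.04 CPM in the other barcodes. Emx2, which patterns the dorsal forebrain, was at 2.25 and 8.47 CPM. The count 4-fold or more above was 0 of 3 tested genes in library 1 and 2 of 4 in library 2 (2 and 2 as far below). The summed list was below the other barcodes of library 1 (65.2 against 90.5 CPM), a direction that turns when Ttr is left out of the totals (92.3 against 90.6 CPM).

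Among receptors, Htr2c, the serotonin receptor for which choroid plexus is known, stood apart. It was at 187 CPM in library 1 (149 to 231) and 407 CPM in library 2 (385 to 431), against 18.5 and 8.41 CPM, and 8 small RNA gene models lie within it on the same strand. At 4-fold or more above stood 1 of 14 tested genes in library 1 and 3 of 15 in library 2 (4 and 8 as far below), with median log2 ratios of -0.55 and -2.16. Lepr, the leptin receptor, was at 31.5 and 43.7 CPM, Igf1r at 31.5 and 94.9 CPM and Igf2r at 45 and 48.1 CPM. The endothelin receptor Ednrb was at 40.5 and 37.3 CPM and Ifngr1, of the interferon gamma receptor, at 29.2 and 23.7 CPM. The summed list was below the other barcodes, 465 against 591 CPM in library 1 and 752 against 1395 CPM in library 2, and in library 1 it was above them with Ttr left out of the totals (659 against 591 CPM).

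Metal and redox genes summed to 10622 CPM in library 1 (10321 to 10929) and 11987 CPM in library 2 (11863 to 12113), against 2188 and 7678 CPM. At 4-fold or more above stood 10 of 17 tested genes in library 1 and 6 of 21 in library 2 (1 and 3 as far below, median log2 ratios 2.07 and 1.27). Mt3, a metallothionein that binds zinc and copper, was at 829 CPM in library 1 (747 to 918) and 2127 CPM in library 2 (2075 to 2180.4). The peroxidases Gpx4 (1059 and 1388 CPM), Gpx8 (234 and 154 CPM) and Prdx5 (1083 and 883 CPM) also passed in both libraries. The ferritin chains Fth1 and Ftl1, which store iron, were at 4212 and 4044 CPM and 993 and 863 CPM. Prdx1 was at 825 and 716 CPM and passed in library 1 only.

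Respiratory chain transcripts, of both genomes, were high. The 27 nuclear genes summed to 23536 CPM in library 1 (23088 to 23992) and 32955 CPM in library 2 (32748 to 33163), against 1954 and 6255 CPM, and 27 of 27 tested genes in library 1 and 19 of 27 in library 2 stood 4-fold or more above (0 and 0 as far below, median log2 ratios 3.78 and 2.14). Chchd10, a protein of the mitochondrial intermembrane space, was at 2257 CPM in library 1 (2119 to 2401) and 2245 CPM in library 2 (2191 to 2299) against 31.8 and 67.9 CPM. Cox8a, a subunit of cytochrome oxidase, was at 2301 CPM in library 1 (2163 to 2447) and 3374 CPM in library 2 (3308 to 3441) against 146 and 488 CPM. Ndufa4 was at 1609 and 2136 CPM, Cox6c at 1227 and 2279 CPM, Cox4i1 at 2061 and 1873 CPM and Uqcr11 at 948 and 1556 CPM. The 13 mitochondrially encoded genes, limited by the rule, summed to 95489 CPM in library 1 and 134755 CPM in library 2, against 21575 and 57265 CPM. Of these, 11 of 13 tested genes in library 1 and 0 of 13 in library 2 passed 4-fold above (0 and 0 as far below).

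Outside the lists, the genes with the highest sure ratio to the other barcodes in both libraries were read by the same contrast. Wfdc2 (chr2:164562413-164568510, plus strand), a secreted protease inhibitor of epithelia, was at 469.7 CPM in library 1 (408 to 538) and 364 CPM in library 2 (343 to 387) against 0.814 and 2.51 CPM. AC140426.1, a long intergenic non-coding RNA, was at 913 CPM in library 1 (826 to 1006) and 1428 CPM in library 2 (1385 to 1472) against 1.15 and 18.4 CPM. Ppp1r1b, a phosphatase inhibitor best known from striatal neurons, was at 396 and 406 CPM, and Steap1, of a family of metal reductases, at 209 and 148 CPM. Ins2 (chr7:142678656-142743381, minus strand), an insulin gene, was at 58.4 CPM in library 1 (38.2 to 85.6) and 50.8 CPM in library 2 (43 to 59.6), from 26 and 150 UMIs, against 0.0679 and 0.522 CPM. Vat1l (133 and 289 CPM), Tmem72 (78.7 and 230.4 CPM), Prr32 (178 and 177 CPM), the cytochrome oxidase gene Cox8b (110.1 and 268 CPM), the beta-defensin Defb11 (76.4 and 133 CPM), the retinoid transporter Abca4 (78.7 and 111 CPM) and the polarity gene Crb3 (51.7 and 63 CPM) were among them as well. The remaining 8 of the 20 (Frmpd1os, Smim22, Gm29538, Gm32468, Col8a2, Sema3b, Epn3 and Serpinb1b) lay between 51.7 CPM in library 1 (Serpinb1b) and 175 CPM in library 2 (Smim22).

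Immediate early genes are switched on within minutes of a stimulus, tissue dissociation among them, and are often measured when dissociation methods are compared. The rule did not use them. The 32 genes summed to 425 CPM in library 1 (366 to 489.9) and 422 CPM in library 2 (399 to 446). The other barcodes held 1113 and 16530.2 CPM. Single members had medians of 358 CPM in library 1 and 362 CPM in library 2, and the highest single member reached 5162 CPM in library 1 and 3780.5 CPM in library 2. No UMI of the list was found in 32 of 105 members of library 1 and 21 of 155 of library 2. The summed levels of the 2 libraries thus differed by less than their counting error.

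Classes of other cells in the same libraries were higher. The microglia class stood at 2827 CPM in library 1 (721 barcodes, median depth 2244 UMIs) and 20225 CPM in library 2 (1936 barcodes, 6138.5 UMIs). Its barcode medians were 2306 and 5051 CPM. At or above that median lay 3 of 105 members in library 1 and 0 of 155 in library 2. The endothelial class of library 2 stood at 20133 CPM, the neuron class at 865 CPM in library 1 and 1125 CPM in library 2, and the astrocyte class of library 1 at 644 CPM. Scaled to all UMIs, the interval of the members, in each library, lay below those of all other classes with at least 50 barcodes. With Ttr left out of their totals, the members of library 1 stood at 601 CPM. That value lay inside the astrocyte interval on all UMIs (523 to 784 CPM), so the order there depends on the scaling.

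**Figure D3:**
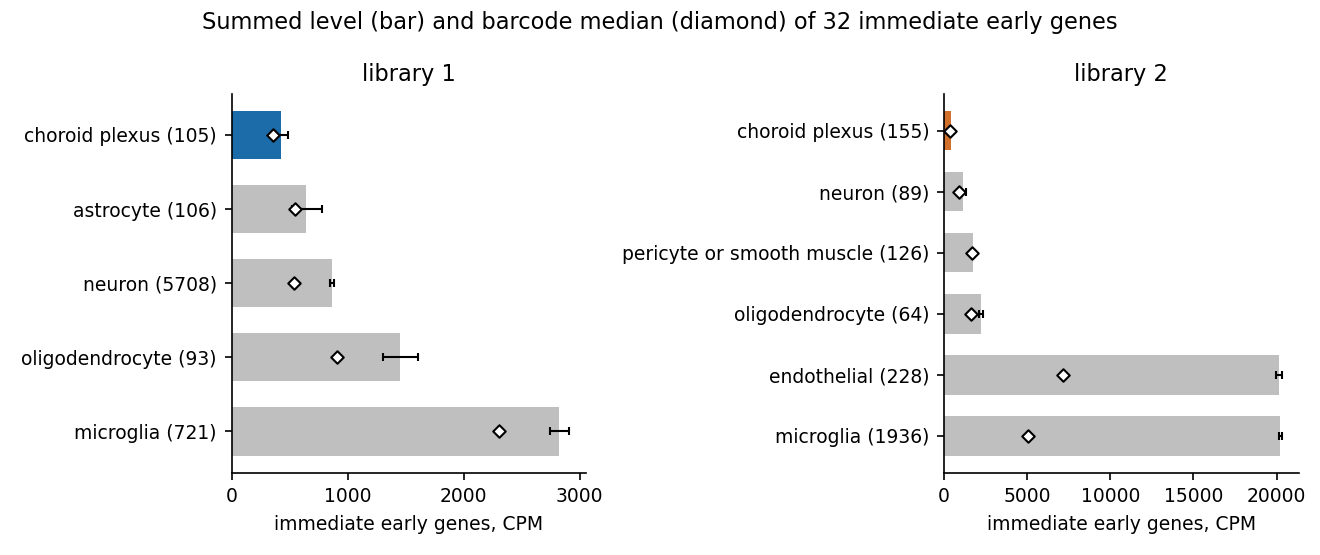
Summed level of 32 immediate early genes (bars, CPM, with exact 95% Poisson intervals) and the median over single barcodes (diamonds) for the choroid plexus barcodes and each class of other barcodes, with the number of barcodes in parentheses; the axes of the libraries differ. The choroid plexus bars, scaled to all UMIs with Ttr among them, are the shortest in both libraries, at 425 and 422 CPM.

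Much of the members' level came from a single gene. Jund, a Jun family member expressed without stimulus in many tissues, was at 220.3 CPM in library 1 (179 to 268) and 223 CPM in library 2 (207 to 241). Without Jund the level of the list in library 1 was 205 CPM (from 165 to 251), and in library 2 it was 199 CPM (from 183 to 216), against 1019 and 15029 CPM elsewhere. Jun was at 15.7 CPM in library 1 (6.33 to 32.4) and 33.5 CPM in library 2 (27.3 to 40.8), against 97.9 and 2610.2 CPM in the other barcodes. Fos had 0 UMIs in library 1, which allows up to 6.74 CPM, and 20 UMIs in library 2 (6.78 CPM, 4.14 to 10.5), against 17 and 1266 CPM. Rhob (22.5 and 21 CPM), Ier5 (20.2 and 16.3 CPM), Btg2 (15.7 and 15.9 CPM) and Ier3 (13.5 and 13.2 CPM) completed the 6 highest. Of the tested genes, 16 of 28 in library 1 and 27 of 29 in library 2 stood 4-fold or more below the other barcodes, and 0 above, with median log2 ratios of -1.33 and -5.63.

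The level of this list differed with Ttr share within the members. Members under 10% Ttr held 871 CPM of it in library 1 and 944 CPM in library 2, against 380.5 and 387 CPM in the other members. RNA of other cells also differed across this split, as given above, with neuron markers in library 2 going the other way. The part of other cells' RNA in the members' level of immediate early genes was not tested further. Without members that held 5 UMIs of any other cell's list, the ependymal list aside, the level was 305 CPM in library 1 and 380 CPM in library 2. This limit is a fixed count of UMIs, so deeper members reach it at a smaller share of their RNA. The part of free RNA was not tested.

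Other stress lists were described in the same way. Heat shock genes summed to 3547 CPM in library 1 (3374 to 3726) and 4751 CPM in library 2 (4672 to 4829.9), against 1402 and 5386 CPM, a direction that turned in library 2 when Ttr was left out of the totals (6144 against 5396 CPM). Of these chaperones, Hspa8 was at 1322 and 1259 CPM, Hsp90ab1 at 807 and 1063 CPM and Hsp90aa1 at 512 and 1020 CPM. At 4-fold or more above stood 3 of 13 tested genes in library 1 and 0 of 13 in library 2 (1 and 2 as far below). Unfolded protein response genes, which report on load in the secretory pathway, summed to 2227 CPM in library 1 (2091 to 2370.4) and 3407 CPM in library 2 (3340.4 to 3474), against 1676 and 3108 CPM, and 0 of 13 tested genes in either library stood 4-fold or more above or below. Hspa5, the main chaperone of the endoplasmic reticulum, was at 533 and 736 CPM against 302 and 540.1 CPM, and Hsp90b1 and Calr were at 481 and 728 CPM and 402 and 581 CPM.

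The list of NF-kB targets and cytokines held 193 CPM in library 1 (155 to 239) and 210.4 CPM in library 2 (194 to 228), and most of this was Vcam1. Vcam1, an adhesion molecule for leukocytes, was at 162 CPM in library 1 (127 to 204) and 155 CPM in library 2 (141 to 169), against 11.7 and 198 CPM. Without it the list stood at 31.5 and 55.9 CPM, against 142 and 2658 CPM. Of the tested genes, 7 of 12 in library 1 and 20 of 21 in library 2 stood 4-fold or more below the other barcodes. Interferon and MHC genes summed to 285 CPM in library 1 (238 to 339.6) and 349 CPM in library 2 (328 to 371), against 388 and 3982 CPM, and in library 1 the members were above with Ttr left out of the totals (404 against 388 CPM). Of these, Bst2, an interferon-induced membrane protein, was at 117 and 92.5 CPM, B2m at 36 and 87.8 CPM, Ifitm3 at 33.7 and 74.9 CPM and H2-K1 at 56.2 and 50.5 CPM.

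Ttr was also found outside the members, where it is noted as free RNA. In library 1 it had at least 1 UMI in 34.8% of the 7439 other barcodes, at 273 CPM. In library 2 it had a UMI in 99.7% of the 2818 other barcodes, with a median of 11 UMIs, at 1801 CPM. Members held 88.7% of all Ttr UMIs in library 1 and 65.4% in library 2, and the other passing barcodes held 2.73 and 3.37%. Barcodes that met every criterion but the mitochondrial limit held 2.8% in library 1 (6 barcodes) and 26.4% in library 2 (86 barcodes), and are not counted here as free RNA. Barcodes under 1000 UMIs held 1994 CPM of Ttr in library 1 and 18977 CPM in library 2. Some of these met the Ttr and marker criteria. Of 150 barcodes that met both in library 1, 116 had at least 1000 UMIs, and of 373 in library 2, 258 did. The other passing barcodes include those just under the 3% limit. How much of the Ttr in either set is free RNA was not tested. A Ttr UMI alone therefore did not mark this cell type in either library. It was found in 2586 other passing barcodes of library 1 and 2810 of library 2, against 105 and 155 members.

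Depth was matched by thinning each barcode to 1000 UMIs. Ttr then had a UMI in 16.4% (13.7 to 19.3%) of microglia class barcodes in library 1 and 82.4% (80.7 to 84.1%) in library 2. Without thinning these shares were 33.1 and 99.8%, at median depths of 2244 and 6138.5 UMIs. In library 2 the share was 75.9% in the endothelial class, 89.7% in the pericyte or smooth muscle class and 98.9% in the neuron class, whose 89 barcodes had a median of 1276 UMIs and 7592 CPM of Ttr. Every member of library 1 and library 2 had Ttr after thinning, with medians of 264 and 255 UMIs.

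Other transcripts of the epithelium were set against Ttr in the microglia class of library 2. Per 1000 Ttr UMIs, members held 13.6 (13.3 to 13.9) UMIs of 1500015O10Rik and the microglia class 13.3 (11.9 to 14.9). For Chchd10 these were 9.9 (9.66 to 10.1) and 9.29 (8.08 to 10.6), and for Folr1 3.61 (3.46 to 3.75) and 3.79 (3.03 to 4.67). Clic6 likewise had overlapping intervals, at 3.02 (2.89 to 3.15) and 3.26 (2.56 to 4.09). Enpp2 was higher relative to Ttr in the microglia class, at 89.3 (85.5 to 93.3) against 77 (76.3 to 77.6), and so was Kcnj13, at 4.93 (4.06 to 5.93) against 3.28 (3.15 to 3.42). The remaining transcripts set against Ttr had overlapping intervals. Sostdc1 was at 2.55 in the microglia class against 3.11 in members, and Calml4 at 2.42 against 3.13. Kl was at 4.75 against 3.97 and Igfbp2 at 7.44 against 6.39. Thus all transcripts set against Ttr here, except Enpp2 and Kcnj13, stood in microglia class barcodes at the members' ratio within counting error.

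Other classes of library 2 stood above that ratio for some transcripts. In the neuron class Enpp2 was at 204 (179.8 to 232) per 1000 Ttr UMIs, and Clic6 and Kl were both at 11.6 (6.34 to 19.4), from 14 UMIs each, against 3.97 (3.82 to 4.12) of Kl in members. In the endothelial class Enpp2 was at 186 (171 to 203), Chchd10 at 17.1 (12.6 to 22.6) and Kl at 8.9 (5.76 to 13.1). Folr1 overlapped the members' interval in both classes, at 4.97 (1.82 to 10.8) and 4.27 (2.21 to 7.46).

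In library 1 some transcripts stood far above the members' ratio. In its neuron class Chchd10 was at 115 (103 to 128) per 1000 Ttr UMIs against 7.69 (7.22 to 8.18) in members, and Kl at 36.8 (30.1 to 44.5) against 1.49 (1.28 to 1.71). Folr1 was at 4.9 (2.68 to 8.22) against 4.05 (3.71 to 4.41), from 14 UMIs in 5708 neuron class barcodes. Enpp2 was also high in the oligodendrocyte class of both libraries, where with thinning it had a UMI in 81.7 and 84.4% of barcodes, at 2025 and 2068 CPM. Ttr had a UMI in 8.6 and 67.2% of the same barcodes.

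**Figure D4:**
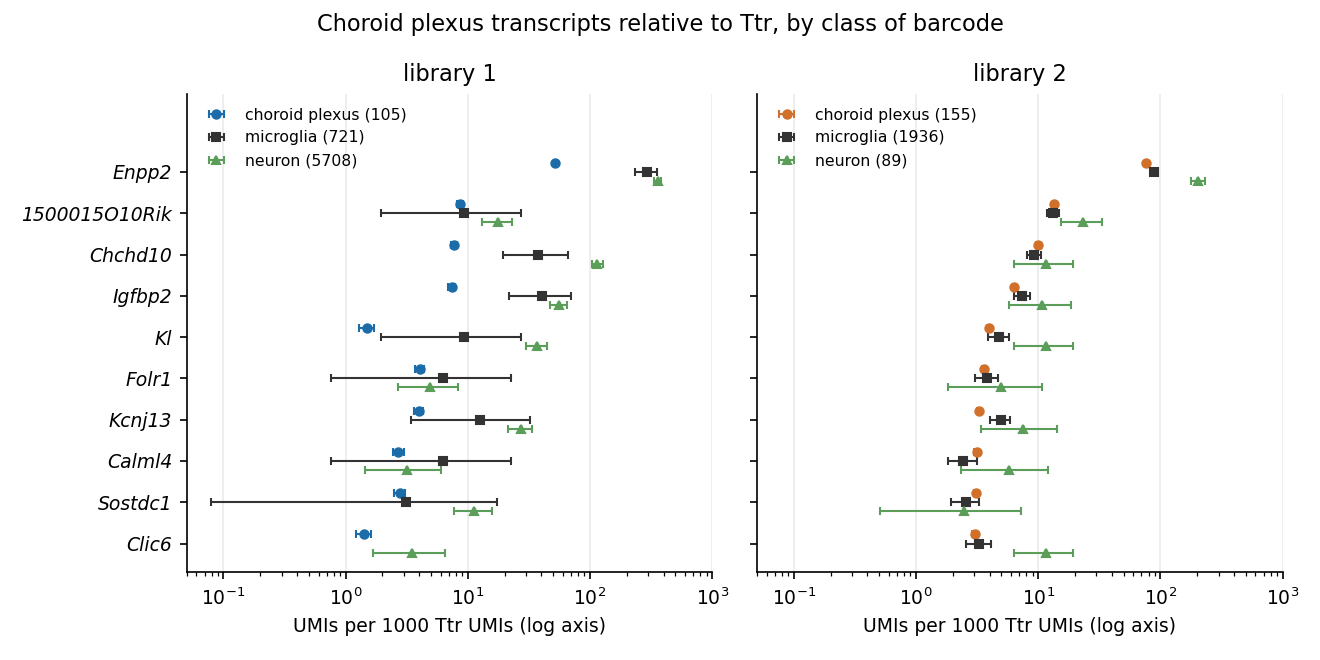
UMIs of 10 choroid plexus transcripts per 1000 Ttr UMIs (log axis) in choroid plexus, microglia class and neuron class barcodes of each library, with exact 95% Poisson intervals; Clic6 had 0 UMIs in the microglia class of library 1 and is not drawn there. In library 2 microglia class values lie close to those of the members while neuron class values of Enpp2, Clic6 and Kl lie to the right, and in library 1 Enpp2, Chchd10, Igfbp2 and Kl of the neuron class lie to the right.

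Mitochondrial share varied among members and with it other RNA. Its median was 8.23% in library 1 and 13.4% in library 2, against 1.28 and 6.39% in the other barcodes. At or under 10% lay 65 of 105 members of library 1 and 44 of 155 of library 2. These held less Ttr than members over 10%, 268522 against 318952 CPM in library 1 and 167848 against 237961 CPM in library 2. They also held less Prlr (241 against 425 CPM, and 324 against 875 CPM) and less Kl (344 against 529 CPM, and 478 against 979 CPM). Chchd10 and Calml4 had the other direction in library 2, at 3243 against 2054 CPM and 925 against 669.8 CPM. In library 1 their direction was the same, with overlapping intervals, at 2311 against 2201 CPM and 890 against 696 CPM. The members over 10% in library 2 include all 9 over 100000 UMIs, and without these 9 they held 592 CPM of Prlr, 786 of Kl, 271378 of Ttr, 2495 of Chchd10 and 772 of Calml4. The mitochondrial and Ttr shares had a Spearman correlation of 0.57 over the 105 members of library 1 and 0.29 over the 155 of library 2, and both are shares of the same total. Immediate early genes were at 478 against 371 CPM in library 1, with overlapping intervals, and at 660.1 against 377 CPM in library 2.

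Malat1, a long non-coding RNA kept in the nucleus, was low in members. Its median share of a barcode's UMIs was 1.16% in library 1 and 0.0428% in library 2, against 12.7 and 3.34% in the other barcodes. In library 2, 110 of 155 members (71.0%) held less than 0.1% Malat1, as did 117 of 1936 microglia class barcodes (6.04%), and in library 1 no member did (0 of 105). Members at or under 10% mitochondrial UMIs held 32138 CPM of Malat1 against 6184 CPM in the others of library 1, and 10447 against 3184 CPM in library 2. Over single members, mitochondrial share and Malat1 had a Spearman correlation of -0.65 in library 1 and -0.03 in library 2. Ttr share and Malat1 had -0.70 and -0.09. Members under 10% Ttr held 99756 CPM of Malat1 against 11239 CPM in the other members of library 1, and 12071 against 3833 CPM in library 2. In library 1 these low-Ttr members also held more neuron markers, as given above. Which of these shares Malat1 goes with was not tested. Whether low-Malat1 barcodes are whole cells was not tested.

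**Figure D5:**
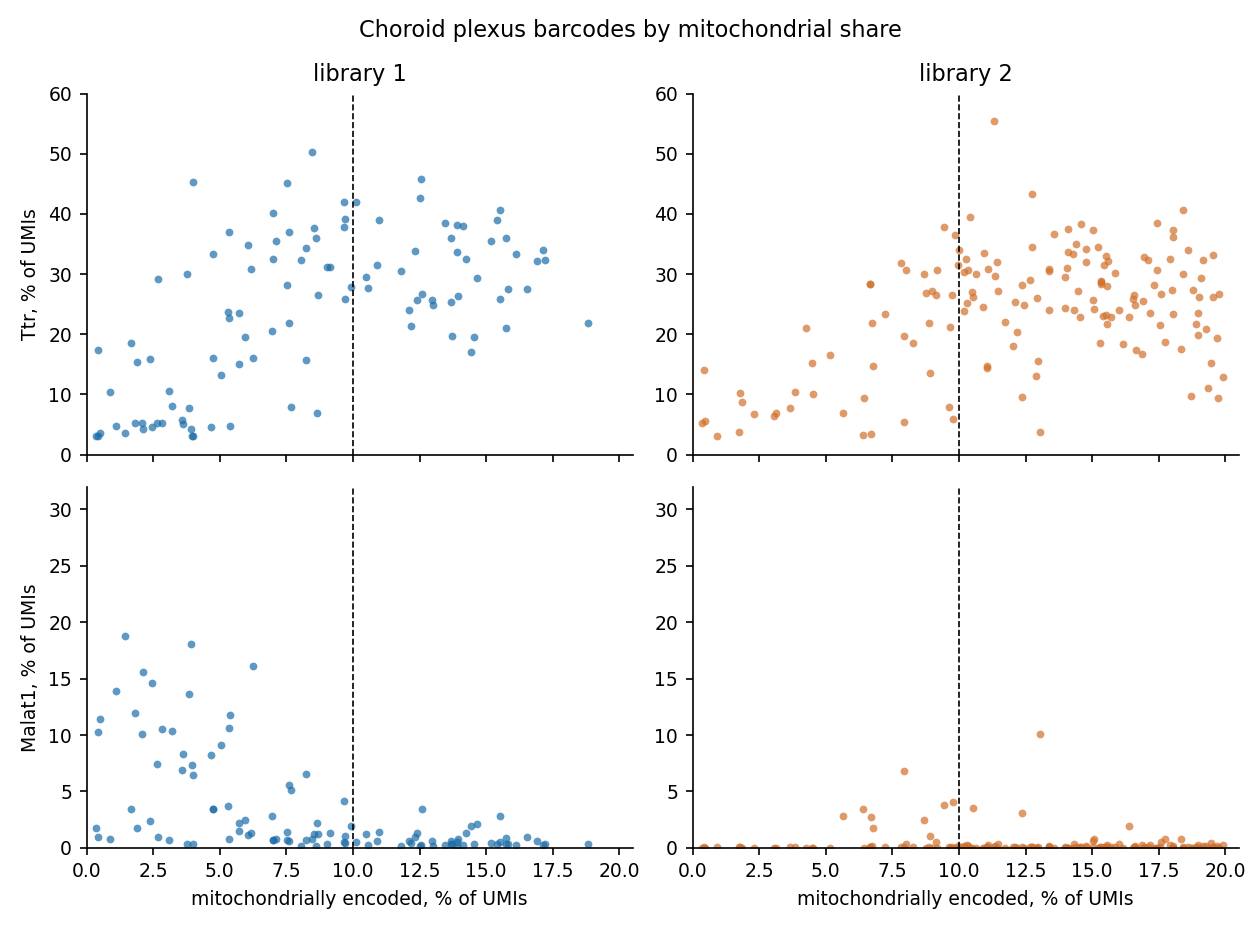
Ttr share (top) and Malat1 share (bottom), in % of UMIs, against the mitochondrially encoded share of each choroid plexus barcode, with 10% dashed. All barcodes of library 1 with over 5% Malat1 lie at or under 10% mitochondrial UMIs, and most barcodes of library 2 lie near 0 at every mitochondrial share.

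In library 2, 9 members stood apart in depth, at 138555 to 168757 UMIs and 9221 to 9963 genes, the next member having 96069 UMIs. They held 46.4% of all member UMIs of library 2, so that summed levels there lean on them. Their Ttr shares were 15.3 to 24.0% and their mitochondrial shares 13.4 to 19.7%. Markers of some other cells were scarcer than in the 146 other members. Microglia markers were at 57.7 against 526 CPM, and neuron markers at 39.4 against 328 CPM. Endothelial markers were higher (108 against 70.2 CPM), fibroblast markers too (81 against 46.2 CPM), and oligodendrocyte precursor markers were alike within counting error (35.8 against 39.8 CPM). The limit of 100000 UMIs was chosen after these values were seen.

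Whole lists differed in both directions in these 9. The receptor list was at 953 against 577 CPM, the junction list at 2240.1 against 1558 CPM, ion and water transport at 7557 against 6047 CPM and mitochondrially encoded genes at 163231 against 110092 CPM, while motile cilium genes were lower, at 1125 against 1577 CPM, and heat shock genes too, at 4177 against 5247 CPM. Single genes were picked after their values were seen. Prlr was at 1104 CPM (1049 to 1161) against 512 CPM (477 to 548) in the other members, Igf1r at 145 CPM (126 to 167) against 51.2 CPM (40.7 to 63.7) and Slc12a2 at 706 CPM (662 to 752) against 369 CPM (339 to 399.8). Slc4a2 (538 against 268 CPM), Slc4a5 (272 against 133 CPM) and Cldn2 (204 against 99.9 CPM) had the same direction, while Kcnj13 (695 against 787 CPM) and Fxyd1 (823 against 999 CPM) were lower. Chchd10 was lower, at 1698 CPM (1629 to 1768) against 2719 CPM (2638 to 2801), and so were Krt18 (131 against 255 CPM) and Cfap126 (68.6 against 137 CPM). Immediate early genes were at 413 CPM (379 to 448) against 431 CPM (399 to 464), with overlapping intervals.

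Set side by side, members of these unassigned libraries were compared at the same 4-fold limit. Of 5995 genes with at least 50 UMIs over all members, 117 were higher in library 2 (1.95%) and 32 were lower (0.534%), with no method attached to either library. Over the alternatives, the higher genes numbered 37 to 185 and the lower genes 6 to 202. Without the 9 deepest members the higher genes numbered 41. With members of at least 10% Ttr there were 178 higher and 7 lower genes, and with equal weight for each barcode 202 lower genes.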

How the data were processed

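Barcodes from 2 libraries were analysed. The deposited matrices hold raw UMI counts, and per the submitters' processing notes the authors made them with Cell Ranger 3.0.1 on GRCm38.p5. The rule for members and the gene lists were chosen with earlier results of these data known. UMIs were summed over members and over the other passing barcodes of a library and scaled to 1000000 (CPM), and ratios were called at 4-fold for genes with at least 50 UMIs in both sets together. Intervals came from scipy 1.17.1. A count of 0 was read as allowing 3 counts. The calls were checked on simulated counts. No doublets were removed for the main values, so doublets may remain among the members. Scrublet (scanpy 1.11.5) marked 0.0133 and 0.168% of barcodes by its own threshold, shares too low for that threshold to be used. Its highest scores up to the expected share (6.04 and 2.38%) were removed as an alternative.

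Named genes are, per list, the up to 6 with the highest mean CPM in members and those 4-fold or more above in both libraries, and outside the lists the 20 with the highest lower bound of the ratio at 50 CPM or more in members of both. Between libraries they are the 12 highest and 12 lowest. Aqp1, Igf2, Fos, Malat1, Ccdc153, Tmem212, the 3 Hoxb genes and the neuron marker Gad1 were named after their values were seen. Some genes that the rule takes are not reported here. No test with replicates was possible.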

Additional observations from a re-analysis of the deposited data

How the results depend on the processing

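With a mitochondrial limit of 10%, members numbered 65 in library 1 and 44 in library 2, and immediate early genes in library 2 stood at 660 CPM. Of genes 4-fold apart between members of the libraries, 41 were then higher and 13 lower in library 2. With at least 2000 UMIs these were 185 and 20, and 69 members stayed in library 1. With at least 500 UMIs and 250 genes members numbered 142 and 215. At 1% Ttr library 2 held 216 members, immediate early genes at 587 CPM and 56 lower genes; at 6% Ttr 11 genes were lower, and without barcodes marked by Scrublet 10. Without members holding 5 UMIs of another cell's list, 55 and 100 members stayed, immediate early genes were at 305 and 380 CPM, and 37 genes were higher and 6 lower. With totals without Ttr immediate early genes were at 601 and 546 CPM and 1089 genes stood above the other barcodes in library 1, and with totals without mitochondrially encoded genes the list was at 493 CPM in library 2. With equal weight for each barcode it was at 519 and 504 CPM, and 202 genes were lower in library 2. With no minimum of UMIs, 1527 and 1919 genes stood above and 14861 and 10552 below the other barcodes. Classes at 90% of marker UMIs gave 218 and 1856 CPM of Ttr in microglia. Alternatives chosen after seeing the data gave, without members with 1% of another cell's list, 396 CPM of immediate early genes in library 2 and 7 lower genes; at 10% Ttr, 83 members in library 1, 387 CPM in library 2, and 178 higher and 7 lower genes; and without members over 100000 UMIs, 41 higher genes. The causes were not tested, except that fewer barcodes or another total enter by construction. No paired analysis was possible because each library is a single unassigned pool.

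In every alternative run, immediate early genes lay between 305 and 601 CPM in members of library 1 and between 380 and 660 CPM in those of library 2. Depth limits single genes most in library 1, where 105 members held 444929 UMIs in all against 2950976 in library 2.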

Other observations

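The genes 4-fold apart between members of the unassigned libraries are given here as values of 2 single pools. Haemoglobin genes were among the 117 higher in library 2, with Hbb-bs at 2.25 and 3604 CPM, Hba-a1 at 4.5 and 1573 CPM, Hba-a2 at 2.25 and 1168 CPM and Hbb-bt at 2.25 and 886 CPM, library 1 first. The other barcodes held 673 and 3412 CPM of Hbb-bs. A single member of library 2 held 799346 CPM of erythrocyte markers. Lars2 (6.74 and 130.5 CPM), Gm42418 (472 and 3535 CPM) and Mir6236 (15.7 and 164 CPM) were higher in the other barcodes of library 2 too, at 31.8 and 420.3 CPM, 935 and 12106 CPM and 25 and 521 CPM.

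Npr3, the clearance receptor for natriuretic peptides, was at 6.74 and 89.8 CPM in members and 25 and 3.6 CPM in the other barcodes, so its direction there was the opposite. Usp50 was at 18 and 149 CPM against 27.4 and 25.6 CPM, a level alike in the other barcodes of both libraries. AC121965.1 (191 and 847 CPM), mt-Nd3 (1081 and 4121 CPM) and Rps28 (198 and 816 CPM) completed the 12.

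The 12 lowest genes in library 2 were all higher in the other barcodes of library 1 than in those of library 2, and 5708 of the former were of the neuron class. Meg3 was at 2227 and 128 CPM, with 28298 and 315 CPM in the other barcodes, and Snhg11 at 789 and 45.7 CPM. The glutamate receptor genes Gria2 (346 and 15.6 CPM), Grin2a (115 and 2.37 CPM) and Grin2b (108 and 4.41 CPM) followed, with Ly6h (166 and 1.69 CPM), Auts2 (103 and 3.39 CPM), Miat (98.9 and 5.08 CPM), Slc17a7 (96.6 and 5.76 CPM), Lsamp (85.4 and 5.08 CPM), Syt1 (87.7 and 6.1 CPM) and Matk (89.9 and 7.79 CPM).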
